A study of Mus musculus with 3 samples.

Results

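The interleukin 1 system was described here through 6 of the 19091 genes in the deposited matrices. These were the ligands Il1a and Il1b, the receptor antagonist Il1rn, the decoy receptor Il1r2, the related ligand Il1f9 (also called Il36g) and the inflammasome sensor Nlrp3. They were chosen by name, as the ligands, brakes and upstream sensor of the pathway, and all 6 had counts in each library. Liver cells of adult C57BL/6 mice (C57BL/6J in the methods of the study) were profiled by Drop-seq, in which cells are captured in droplets with barcoded beads and each transcript is counted by a unique molecular identifier (UMI). There were 3 libraries, each pooled from the livers of 3 mice. The control library came from sham-operated mice whose tissue, per the labels, was taken after 1 day, and from an uninjured area. The other libraries came from the area damaged by irreversible electroporation (IRE), a train of electric pulses that kills cells locally, 1 day and 7 days post-injury (p.i.). The labels name no transgene or deletion and give pulses of 50 ms at 75 V with an interval of 1 s, while the methods of the study name another voltage. A punch of 4 mm was digested with enzymes, so that cells lost or altered by the digestion were not seen.

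Interleukin 1 alpha and beta act through the same receptor, Il1r1, with the accessory chain Il1rap. Interleukin 1 alpha is active as made and is held in many cells as a stored alarm signal, whereas interleukin 1 beta is made as an inactive precursor, mainly by myeloid cells, and is cleaved after an inflammasome, such as the Nlrp3 inflammasome, has activated Casp1. The product of Il1rn occupies the receptor without signalling, the product of Il1r2 binds the ligand without passing on a signal, and Il1f9 encodes IL-36γ, a relative that signals through another receptor. In injured liver these cytokines are known for drawing in neutrophils and for induction of acute-phase genes.

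To show the promoters beside the levels, 250 bases before the annotated start (RefSeq, GRCm38.p6) are printed for the members whose levels diverged most, Il1a against Il1b, Il1r2 and Il1f9, and for the antagonist. All 6 members were found in the reference table. Bases are in lower case and matches to 5 letter patterns, searched on both strands, are in capitals. The patterns were those of a TATA box and of the AP-1, STAT, NF-kB and cAMP response types, spelled out with their matches after the sequences. Il1a lies at chr2:129309973-129310222 on the minus strand, Il1b at chr2:129371140-129371389 on the minus strand, Il1r2 at chr1:40085843-40086092 on the plus strand, Il1f9 at chr2:24186226-24186475 on the plus strand and the first of 3 annotated Il1rn promoters at chr2:24336610-24336859 on the plus strand.
Il1a: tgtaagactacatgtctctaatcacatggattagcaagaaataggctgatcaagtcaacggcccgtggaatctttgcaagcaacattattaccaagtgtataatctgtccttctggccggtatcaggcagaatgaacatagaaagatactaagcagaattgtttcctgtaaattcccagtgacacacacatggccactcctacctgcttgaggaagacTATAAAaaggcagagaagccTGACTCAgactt
Il1b: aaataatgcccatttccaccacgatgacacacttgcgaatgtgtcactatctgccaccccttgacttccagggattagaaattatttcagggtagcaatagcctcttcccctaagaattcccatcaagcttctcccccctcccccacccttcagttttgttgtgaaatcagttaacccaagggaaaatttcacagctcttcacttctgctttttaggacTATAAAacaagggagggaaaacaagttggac
Il1r2: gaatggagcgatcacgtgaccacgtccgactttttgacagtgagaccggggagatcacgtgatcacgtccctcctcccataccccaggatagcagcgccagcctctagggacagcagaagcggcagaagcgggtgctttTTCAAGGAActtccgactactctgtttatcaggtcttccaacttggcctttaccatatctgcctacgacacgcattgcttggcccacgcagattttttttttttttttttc
Il1f9: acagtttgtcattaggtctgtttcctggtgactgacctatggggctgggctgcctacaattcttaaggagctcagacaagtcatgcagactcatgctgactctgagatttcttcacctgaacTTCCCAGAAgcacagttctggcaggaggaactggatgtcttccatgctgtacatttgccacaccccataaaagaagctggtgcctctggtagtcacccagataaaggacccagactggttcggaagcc
Il1rn: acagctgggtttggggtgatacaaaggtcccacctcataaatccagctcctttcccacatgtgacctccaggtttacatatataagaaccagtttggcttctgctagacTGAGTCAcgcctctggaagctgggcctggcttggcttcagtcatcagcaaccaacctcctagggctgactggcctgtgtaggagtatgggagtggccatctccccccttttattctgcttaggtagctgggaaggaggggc

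The TATA box letters TATAAA stood 32 bases before the start of Il1a and 31 bases before that of Il1b, and were present in 12.4% of the 32851 promoters of the same length. The AP-1 type letters TGANTCA were found 12 bases before the start of Il1a and 141 bases before the first start of Il1rn, against 6.75% of all promoters. The STAT type letters TTCNNNGAA were found 111 bases before the start of Il1r2 and 128 bases before that of Il1f9, against 7.02% of all promoters. The NF-kB type pattern, GGG and TTCC with 3 bases of any kind between them, was found only in the third Il1rn promoter, 51 bases before its start, against 4.65% of all promoters. The cAMP response type letters TGACGTCA, present in 1.55% of promoters, were found at no member. The Nlrp3 promoters held none of the 5 patterns. These matches are letters in a window and were not set against binding data.

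With a limit of at least 200 detected genes, 10386 of 15704 barcodes remained in the control, 9253 of 18161 in the 1-day and 5624 of 12466 in the 7-day library. They held 8013800, 6107866 and 3058967 UMIs, with medians of 595, 509 and 456.5 UMIs per barcode. The libraries stood apart in composition. Mitochondrial transcripts took 20.5% and 21.7% of UMIs in the control and at 1 day p.i. but 4.10% at 7 days p.i., hepatocyte markers took 0.209%, 3.49% and 0.0468%, and the 10 neutrophil markers, all detected in each library, took 0.402%, 0.0693% and 4.26%. Between 202 and 738 barcode sequences were shared by a pair of libraries, and leaving them out moved none of the 12 library ratios and 33 gate ratios of the members beyond its interval; the other ratios below were not recomputed without them. Each condition was a single library, so no difference below has a replicate check and no p-value is given. The 95% intervals are exact Poisson (levels), exact binomial (shares) or conditional binomial (ratios) intervals and cover counting error only. Levels are counts per 1000000 UMIs of the same set of barcodes (CPM), and they are not compared between genes.

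Il1b, Il1rn, Il1r2, Il1f9 and Nlrp3 were all far higher in the 7-day wound than in control liver. Il1a differed far less, at 1.47-fold the control (1.04 to 2.05). At 1 day p.i. the brakes Il1rn and Il1r2 were lower than in control liver, and Il1b was slightly lower, with a division into makeup and level given further on. Among genes with at least 20 UMIs in the pair of libraries, 5 of the 6 members were at least 2-fold higher at 7 days p.i. than in the control, beside 8.79% of the 12074 genes measured, and 0 were 2-fold lower, beside 26.3%. The same 5 were at least 2-fold higher than at 1 day p.i., beside 11.3% of 12116 genes; these comparisons share the 7-day library. At 1 day p.i. none of the 6 members was 2-fold higher, beside 13.6% of 12988 genes, and 1 member, Il1rn, was 2-fold lower, beside 7.14%. The median log2 ratio of the members was 3.64 for the 7-day and -0.60 for the 1-day library, beside -0.29 and 0.05 over all genes.

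Il1b, the secreted ligand, counted 1003 UMIs in the control, 588 in the 1-day and 5159 in the 7-day library, which correspond to 125 CPM (118 to 133), 96.3 CPM (88.6 to 104) and 1687 CPM (1641 to 1733). The intervals of the 3 libraries did not overlap, and the 7-day library stood far above the others. The level at 7 days p.i. was 13.5-fold that of the control (12.6 to 14.4) and 17.5-fold that of 1 day p.i. (16.1 to 19.1), and the level at 1 day p.i. was 0.769 of the control (0.694 to 0.852). Il1b UMIs were found on 6.54%, 4.84% and 41.4% of barcodes.

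Il1a, the ligand stored in cells, did not share this course. It counted 100, 118 and 56 UMIs, or 12.5 CPM (10.2 to 15.2), 19.3 CPM (16.0 to 23.1) and 18.3 CPM (13.8 to 23.8). The control was lowest, with 1.55-fold more in the 1-day library (1.18 to 2.04) and 1.47-fold more in the 7-day library (1.04 to 2.05), and the 2 injured libraries could not be told apart at this depth (ratio 0.948, 0.677 to 1.31). Il1a was the only member with a higher level at 1 day p.i. than in the control.

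The brakes were lowest at 1 day p.i. and highest at 7 days p.i. Il1rn counted 467, 141 and 2056 UMIs, that is 58.3, 23.1 and 672 CPM, with 0.396 of the control level at 1 day p.i. (0.326 to 0.479) and, in the 7-day library, 11.5-fold the control level (10.4 to 12.8). Il1r2 counted 155, 61 and 1594 UMIs, that is 19.3, 9.99 and 521 CPM, with 0.516 of the control level at 1 day p.i. (0.377 to 0.699) and, in the 7-day library, 26.9-fold (22.8 to 32.0). The 7-day over the 1-day ratio was 29.1 (24.5 to 34.8) for Il1rn and 52.2 (40.4 to 68.5) for Il1r2. The share of barcodes with a UMI went from 3.30% in the control to 1.42% and 24.6% for Il1rn, and from 1.33% to 0.562% and 20.1% for Il1r2.

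Il1f9 and Nlrp3 followed the same order of libraries. Il1f9 counted 76, 33 and 712 UMIs, with 9.48, 5.40 and 233 CPM, and the 1-day level was 0.570 (0.367 to 0.868) and the 7-day level 24.5 (19.4 to 31.5) times that of the control. The 1-day value was 0.259 with at least 500 genes per barcode (3 UMIs at 1 day p.i.), 0.211 with at most 20% mitochondrial UMIs (5 UMIs) and 0.383 with every deposited barcode, so that under these settings Il1f9, too, was past 2-fold lower. The same held for Il1r2 with every deposited barcode (0.441) and without the 5% deepest barcodes (0.494). Nlrp3 counted 122, 72 and 381 UMIs, with 15.2, 11.8 and 125 CPM. Its ratio to the control at 1 day p.i. was 0.774 with an interval that included 1 (0.570 to 1.04), and at 7 days p.i. it was 8.18 (6.66 to 10.1), the smallest ratio among the 5 members that were at least 2-fold higher.

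**Figure D1:**
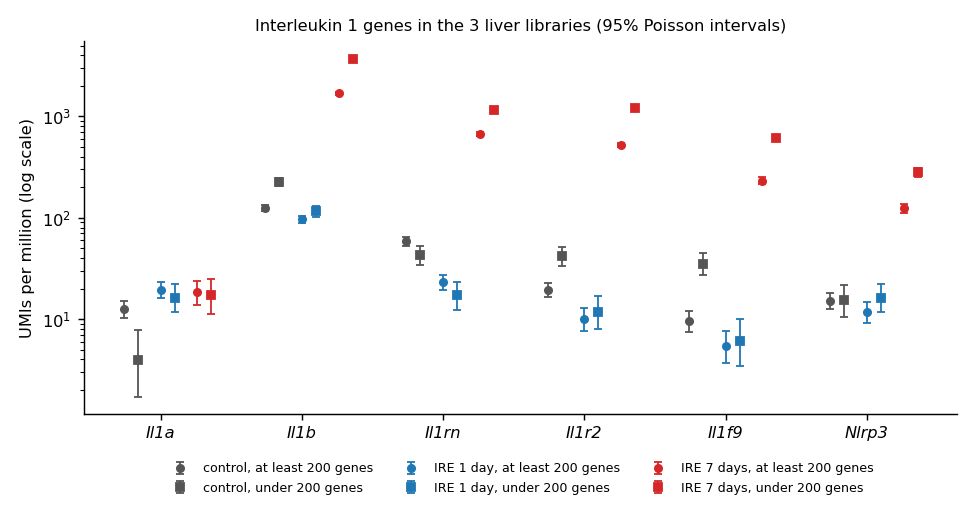
CPM (log axis) of the 6 members in the control, 1-day and 7-day libraries, for barcodes with at least 200 genes (circles) and with fewer (squares), with 95% Poisson intervals. Il1b, Il1rn, Il1r2, Il1f9 and Nlrp3 stand highest in the 7-day library, and Il1a lies between 12.5 and 19.3 in the barcodes with at least 200 genes.

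Cells were assigned to classes by markers. A barcode entered the gate of the class with the most detected markers when at least 3 were found with a lead of at least 1 over the next class. The neutrophil gate held 347, 61 and 2533 barcodes in the control, 1-day and 7-day libraries, and S100a8, S100a9, Retnlg and Cxcr2 led its markers in each library. Of these barcodes 82, 21 and 598 had exactly 3 markers, the minimum. The Kupffer gate held 2202, 2631 and 186 barcodes and the monocyte gate 884 and 443 in the control and the 7-day library. A macrophage gate, drawn on markers such as Ccl2, Spp1 and Gpnmb, held 247 barcodes in the control, where Spp1, Gpnmb, Mmp12 and Trem2 led, and 845 at 7 days p.i., where Spp1, Ccl2 and Thbs1 were among the leading markers, so that the gate did not hold cells of the same markers in both libraries. The endothelial gate held 1334 and 3173 barcodes in the control and 1-day libraries but 48 in the 7-day library, below the minimum of 50 set for a description. Ungated barcodes made up 40.7%, 31.9% and 26.3%.

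In the neutrophil gate 5 members were at least 2-fold higher at 7 days p.i. than in the control with intervals that excluded 1, and the ratio of Il1a was also past 2-fold but rested on 1 UMI in the control, beside 20.3% of the 6421 genes measured there. Il1b counted 250, 68 and 3441 UMIs in the 3 libraries (984, 1845 and 2612 CPM), and none of the intervals overlapped. Against the control it was 1.88-fold higher at 1 day p.i. (1.41 to 2.46), where the library as a whole was lower, and 2.66-fold higher in the 7-day library (2.34 to 3.03). The 1-day ratio turned to 0.763 when at least 500 genes were required, which left 3 UMIs. Neutrophil-gated barcodes under 200 genes, which were left out here, did not show the higher level at 1 day p.i. On these, Il1b was 1868 CPM in the control (263 UMIs) and 1778 CPM at 1 day p.i. (25 UMIs). Il1r2 there was 369 CPM (52 UMIs) and 285 CPM (4 UMIs). Of 4 members with at least 20 UMIs in the 1-day and control gates, Il1rn was at least 2-fold higher, beside 10.8% of genes, and Il1f9 at least 2-fold lower, beside 15.7%, both with intervals that included 1.

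The ratio to the control within the gate was largest for the antagonist, while Il1rn in the B, T and NK gates, described further on as a background, also went from 28.8 CPM in the control to 470 CPM at 7 days p.i. Il1rn counted 26, 9 and 1132 UMIs (102, 244 and 859 CPM), with a ratio to the control of 8.40 for the 7-day (5.70 to 12.9) and 2.39 for the 1-day gate, the latter with an interval that included 1 (0.984 to 5.26). Its interval at 7 days p.i. lay above that of Il1b but overlapped with those of Nlrp3 (2.19 to 8.13) and Il1a (0.686 to 175). The ratio of neutrophils to lymphocytes for Il1rn was 3.55 in the control and 1.83 at 7 days p.i., and the part of the background in the fold was not tested. Il1r2 counted 70, 19 and 1125 UMIs (275, 515 and 854 CPM), 3.10-fold the control in the 7-day gate (2.43 to 4.01) and 1.87-fold in the 1-day gate (1.06 to 3.14).

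The remaining members rested on fewer counts in neutrophils. Il1f9 counted 37, 2 and 523 UMIs (146, 54.3 and 397 CPM), 2.73-fold the control at 7 days p.i. (1.95 to 3.92). Nlrp3 counted 11, 2 and 228 UMIs (43.3, 54.3 and 173 CPM), 4.00-fold the control (2.19 to 8.13). Il1a counted 1, 2 and 22 UMIs, and its ratio of 4.25 had an interval of 0.686 to 175, so that no difference was detectable at this depth.

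More transcripts were found per barcode as well. At least 3 Il1b UMIs stood on 7.20%, 18.0% and 17.9% of neutrophil-gated barcodes, with at most 10, 8 and 24 UMIs on a barcode. After each barcode was thinned to 300 UMIs, Il1b was detected on 21.0% (16.8 to 25.7), 31.1% (19.9 to 44.3) and 44.9% (42.9 to 46.9) of 343, 61 and 2360 neutrophil-gated barcodes, beside 37.5% in the control before thinning and 55.9% at 7 days p.i. The thinned share of the control lay below that of 7 days p.i., and the interval of 1 day p.i. overlapped with both.

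**Figure D2:**
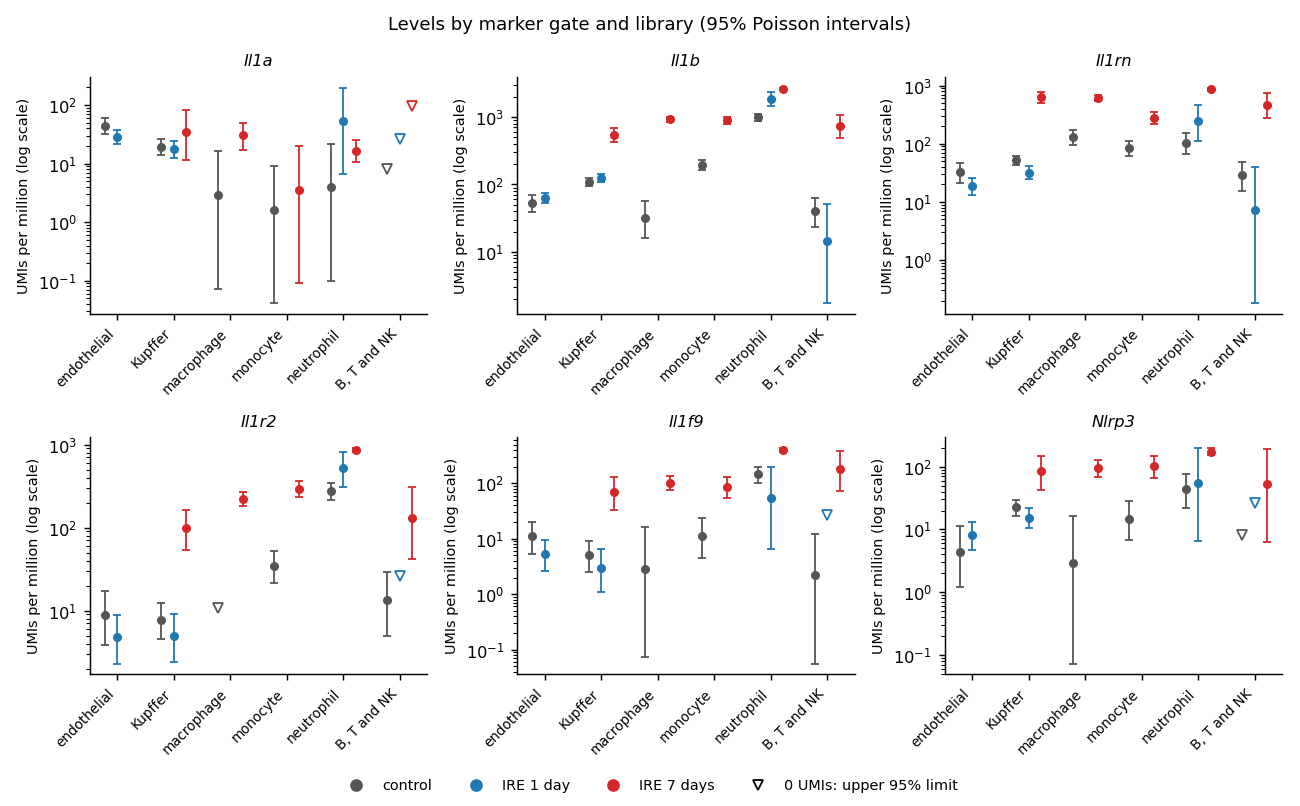
CPM (log axis) of each member by marker gate in the 3 libraries, with 95% Poisson intervals, for gates of at least 50 barcodes and for the B, T and NK gates summed. The neutrophil gate is highest for Il1b, Il1r2 and Il1f9 in the control and at 7 days p.i., whereas Il1a is highest in the endothelial gate in the control.

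To measure how much of each member reached cells that should lack it, the B, T and NK gates were summed as a background of free RNA and mixed droplets. They held 556, 244 and 80 barcodes with medians of 644, 479 and 438.5 UMIs, against 626, 527 and 450 in the neutrophil gate. In the control these lymphocytes carried 18 Il1b UMIs (39.9 CPM, 23.6 to 63.0), in the 1-day library 2 (14.3 CPM, 1.73 to 51.6), but in the 7-day library 28 (731 CPM, 486 to 1057). Il1rn in lymphocytes was likewise 28.8, 7.14 and 470 CPM. On thinned lymphocyte barcodes Il1b was detected on 0.180%, 0.420% and 16.2%, and after 7 days Il1rn was detected on 11.8% and Il1r2 on 1.47%, against 21.5% and 21.6% of thinned neutrophil-gated barcodes. Of the lymphocyte barcodes, 63 of 80 at 7 days p.i. carried at least 2 neutrophil markers.

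Above this lymphocyte background stood, in the 7-day library, the neutrophil gate for 4 members. The ratio of neutrophils to lymphocytes was 3.57 for Il1b (2.47 to 5.39), 6.54 for Il1r2 (2.79 to 20.2), 1.83 for Il1rn (1.15 to 3.10) and 2.17 for Il1f9 (1.05 to 5.43). For Nlrp3 it was 3.31 with an interval that included 1 (0.907 to 27.5), and for Il1a the lymphocytes had 0 UMIs, with an upper limit of 96.3 CPM. In the control the same ratio was 24.7 for Il1b (15.3 to 42.3), 20.7 for Il1r2 (9.06 to 58.4) and 3.55 for Il1rn (1.76 to 7.53). Against barcodes under 200 genes, however, the 7-day neutrophil gate was lower. The ratio was 0.717 for Il1b (0.687 to 0.749), 0.738 for Il1rn, 0.714 for Il1r2, 0.644 for Il1f9 and 0.618 for Nlrp3. Of these 6842 barcodes 4571 met the neutrophil gate themselves, so that they are not a background free of neutrophils.

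The monocyte, macrophage and Kupffer gates could not be told apart from the lymphocyte gates at 7 days p.i. Their ratios to lymphocytes were 1.22, 1.26 and 0.744 for Il1b, 0.589, 1.32 and 1.35 for Il1rn, and 2.23, 1.68 and 0.748 for Il1r2, and each interval included 1. Against their own gates in the control these levels were nevertheless high. Il1b counted 120 UMIs in the control and 249 at 7 days p.i. in the monocyte gate (196 and 895 CPM), 11 and 456 in the macrophage gate (31.8 and 919 CPM) and 239 and 78 in the Kupffer gate (109 and 544 CPM). It was 4.57-fold higher in the monocyte gate, 28.9-fold in the macrophage gate (16.0 to 58.2) and 4.98-fold in the Kupffer gate (3.80 to 6.45), while the lymphocyte gates stood at 39.9 CPM in the control and 731 CPM at 7 days p.i. The levels of these 3 gates at 7 days p.i. are not read as expression above the background, which rests on 28, 18 and 5 lymphocyte UMIs of Il1b, Il1rn and Il1r2. Macrophage-gated barcodes with 0 or 1 neutrophil markers held 5 and 51 Il1b UMIs (816 CPM, 265 to 1903, and 1106 CPM, 823 to 1454). The other 720 of 845 carried at least 2 such markers and held 400 of the 456 Il1b UMIs. In the monocyte gate 365 of 443 and in the Kupffer gate 161 of 186 barcodes carried at least 2. Il1r2 had 0 UMIs in the macrophage gate of the control and 109 at 7 days p.i., at least 25.3-fold higher against a floor of 3 UMIs in the control gate. In the Kupffer gate 5 of 6 members were at least 2-fold higher at 7 days p.i., beside 12.0% of genes, in the macrophage gate 5 of 5, beside 18.1%, and in the monocyte gate 5 of 5, beside 13.4%. The monocyte ratio of Nlrp3, 6.85, went to 1.90 (0.484 to 7.88) with at least 500 genes per barcode.

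The order of the gates at 7 days p.i. placed neutrophils first for every member but Il1a. For Il1b the neutrophil gate, at 2612 CPM, was 2.84-fold above the macrophage gate (2.58 to 3.14), which did not differ from the monocyte gate beyond counting error (919 and 895 CPM), and the Kupffer gate followed at 544 CPM. For Il1r2 neutrophils were 2.93-fold above monocytes (2.34 to 3.72), and for Nlrp3 1.72-fold (1.16 to 2.65). For Il1rn the lead was smallest, 859 CPM against 635 CPM in the Kupffer gate (ratio 1.35, 1.09 to 1.70). Below the neutrophil gate, the Kupffer, macrophage and T cell gates each did not differ beyond counting error from the next lower gate.

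The neutrophil gate, with 43.1% of the UMIs of the 7-day library, held 66.7% of its Il1b, 70.6% of its Il1r2, 73.5% of its Il1f9, 59.8% of its Nlrp3, 55.1% of its Il1rn and 39.3% of its Il1a UMIs. The levels were also followed along the number of neutrophil markers on a barcode, a split chosen after the values of the gates were seen. In the 7-day library Il1b was 588 CPM on the 91 barcodes with 0 such markers, 1029 and 976 CPM with 1 and 2, 1294 CPM with 3, 1815 CPM with 4 and 2756 CPM with 5 or more. Il1r2 was 186, 206, 234, 331, 511 and 1048 CPM along the same classes, and Il1rn 30.9, 464, 511, 582, 713 and 937 CPM. In this library Il1b, Il1r2 and Il1rn were thus highest on the barcodes with the most neutrophil markers. The same held for Il1f9 (413 CPM with 5 or more against 305 CPM with 4) and Nlrp3 (196 against 120 CPM). The intervals of Il1a overlapped in all 6 classes. In the 1-day library 4 markers gave 2234 CPM of Il1b (58 UMIs) and 5 or more gave 1228 CPM (18 UMIs), and Il1r2 was 462 and 409 CPM, with overlapping intervals. In the control, Il1b was 101, 85.3 and 90.2 CPM with 0 to 2 markers and 217, 488 and 897 CPM above that.

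**Figure D3:**
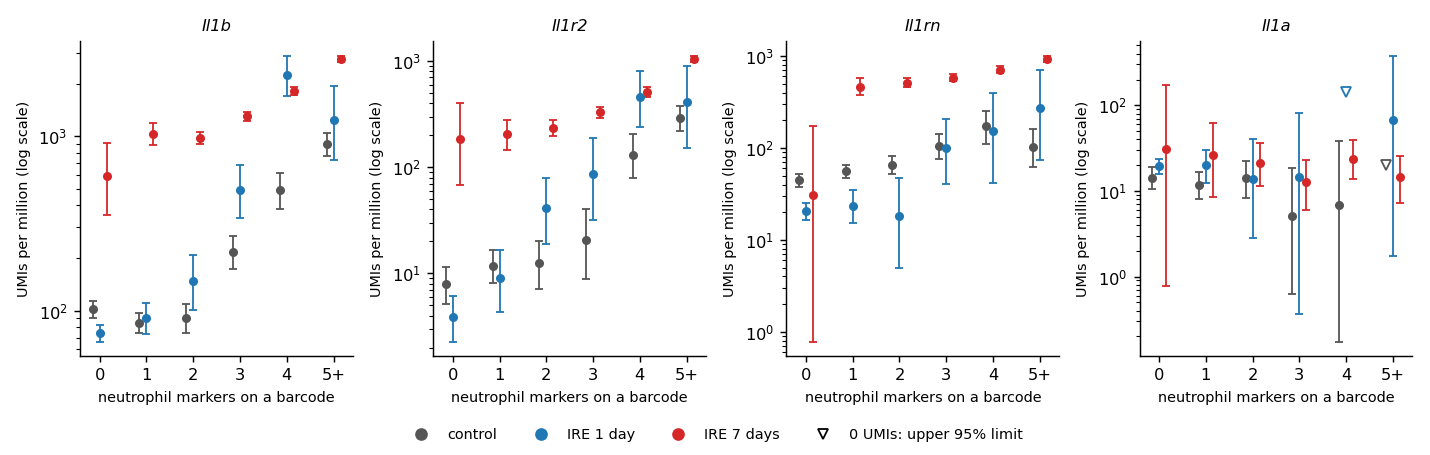
CPM (log axis) of Il1b, Il1r2, Il1rn and Il1a by the number of neutrophil markers detected on a barcode, in the 3 libraries, with 95% Poisson intervals. At 7 days p.i. Il1b stands at 588 with 0 markers and at 2756 with 5 or more.

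Library levels can move with the number of cells of a class or with the level within it, and fewer cells of a type and less RNA per cell cannot be told apart from summed UMIs. Each library fold at 7 days p.i. was divided into a factor for the makeup of the gates, taken at control levels, and a factor for the levels within the gates. Makeup gave 3.83-fold and level 3.52-fold for Il1b, so that both contributed alike. For Il1r2 they were 6.45 and 4.18, and for Il1f9 6.90 and 3.56, with the larger factor on the makeup. For Il1rn they were 1.58 and 7.32 and for Nlrp3 1.68 and 4.88, with the larger factor on the level. The makeup factor of Il1a was 0.400 and its level factor 3.66. For the 1-day library the factors were 0.529 and 0.977 for Il1r2 and 0.727 and 1.06 for Il1b, with the larger part on the makeup, and 0.812 and 0.488 for Il1rn, with the larger part on the level. The ungated barcodes, whose own makeup is not resolved, counted as a gate here, and their Il1rn was 172 UMIs in the control and 26 after 1 day (ratio 0.245, 0.156 to 0.371). The level factors include the background of the 7-day library described above. The makeup factors rest on the gates, which that background can reach as well. Of the 2533 neutrophil-gated barcodes at 7 days p.i., 598 had exactly 3 markers and 713 led the next class by 1. The part of the background in the makeup factors was not tested.

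**Figure D4:**
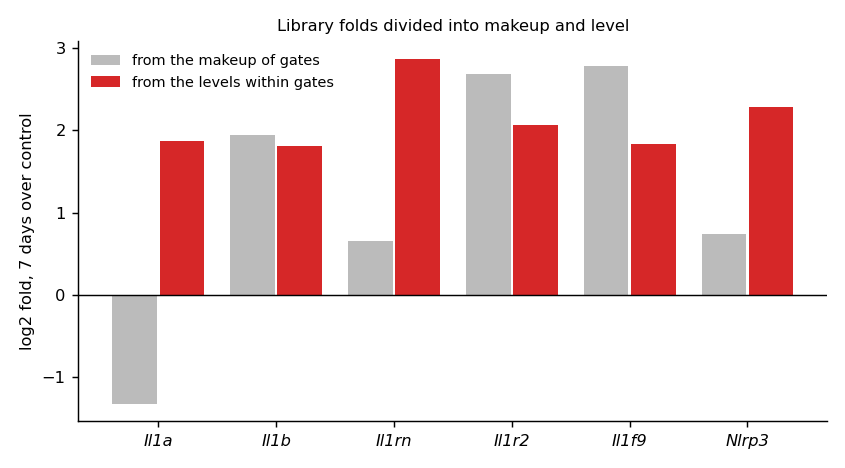
Library folds at 7 days p.i. over the control on a log2 scale, divided into the factor from the makeup of the gates (grey bars) and the factor from the levels within the gates (red bars). For Il1a the makeup factor is below 0 on this scale, and for Il1rn and Nlrp3 the red bar is the taller.

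Il1a differed from the other members in the share that lay in the endothelial gate. Of its 100 UMIs in the control the Kupffer gate held 42 and the endothelial gate 40, and of its 118 UMIs at 1 day p.i. they held 36 and 60. The endothelial gate held 3.28% to 13.2% of the UMIs of the other members in the control and 16.4% to 33.3% at 1 day p.i., with 11.3% and 34.1% of all UMIs in these libraries, while the Kupffer gate of the control held shares of Nlrp3 (40.2%), Il1rn (24.2%) and Il1b (23.8%) as well. Its level in the control was 44.2 CPM in the endothelial gate (40 UMIs) and 19.2 CPM in the Kupffer gate (42 UMIs), a ratio of 2.30 (1.46 to 3.64), and the neutrophil, monocyte and macrophage gates counted 1 UMI each. The lymphocyte gates had 0 Il1a UMIs in both of these libraries, with upper limits of 8.17 and 26.4 CPM, so that the endothelial and Kupffer levels in the control were above that background.

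After 1 day the level of Il1a within the endothelial gate was lower, not higher, at 28.8 CPM (60 UMIs, ratio to the control 0.652, 0.430 to 0.998), and in the Kupffer gate it was 17.9 CPM (36 UMIs). On endothelial-gated barcodes with 0 neutrophil markers Il1a was 38.2 CPM in the control (21.8 to 62.1). After 1 day it was 30.5 CPM on such barcodes (22.6 to 40.4), with overlapping intervals. The makeup factor at 1 day p.i. was 1.84 and the level factor 0.842, in a library where the endothelial gate made up 34.3% of barcodes against 12.8% in the control. In the 7-day library the Kupffer, macrophage and neutrophil gates counted 5, 15 and 22 Il1a UMIs, and their levels (34.9, 30.2 and 16.7 CPM) did not differ from each other beyond counting error.

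Less antagonist was counted in the Kupffer gate at 1 day p.i. than in the control. Il1rn there was 51.7 CPM in the control (113 UMIs) and 31.8 CPM at 1 day p.i. (64 UMIs), a ratio of 0.615 (0.446 to 0.844), while Il1b was 109 and 125 CPM with a ratio of 1.15 (0.956 to 1.37). On Kupffer-gated barcodes with 0 neutrophil markers, however, Il1rn was 34.1 CPM in the control (22.1 to 50.3) and 31.5 CPM after 1 day (23.2 to 41.8), with overlapping intervals, and the lymphocyte background of Il1rn was 28.8 and 7.14 CPM. None of the 5 members measured in this gate at 1 day p.i. was 2-fold higher, beside 13.8% of genes, or 2-fold lower, beside 4.71%. In the endothelial gate Il1rn was 32.1 CPM in the control and 18.7 CPM at 1 day p.i., a ratio of 0.584 (0.352 to 0.980), and 1 of 5 members, Il1f9, was 2-fold lower (0.478, 0.184 to 1.25), beside 3.9% of genes. The endothelial levels in the control were not above the lymphocyte background, with ratios of 1.11 for Il1rn (0.561 to 2.33) and 1.33 for Il1b (0.761 to 2.43), whereas the Kupffer gate of the control stood at 1.79 (1.01 to 3.47) and 2.74 (1.70 to 4.70).

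The number of Il1rn transcripts per Il1b transcript, a ratio in which depth cancels, was compared between libraries and gates. Over the libraries it was 0.466 in the control (0.416 to 0.520), 0.240 after 1 day (0.198 to 0.289) and 0.399 after 7 days (0.378 to 0.420), lowest after 1 day. In the neutrophil gate it was 0.104 in the control (0.0666 to 0.156), 0.132 after 1 day (0.0580 to 0.266) and 0.329 after 7 days (0.307 to 0.352). The neutrophil gate thus held more antagonist per ligand after 7 days than in the control, in a library whose lymphocyte gates held 0.643. Barcodes under 200 genes also held more, with 0.188 in the control (0.148 to 0.237) and 0.320 after 7 days (0.303 to 0.338).

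The Kupffer gate had 0.473 Il1rn UMIs per Il1b UMI in the control (0.375 to 0.594), 0.254 after 1 day (0.190 to 0.335) and 1.17 after 7 days (0.853 to 1.60). Without neutrophil markers the Kupffer gate counted 25 Il1rn against 81 Il1b UMIs in the control and 48 against 176 after 1 day, closer to each other than in the whole gate. After 7 days only 4 Kupffer-gated barcodes had 0 neutrophil markers. The 161 with at least 2 such markers held 90 of the 91 Il1rn UMIs of the gate. The 7-day interval of the Kupffer gate and that of the macrophage gate (0.675, 0.583 to 0.782) lay above those of the neutrophil gate and of barcodes under 200 genes (0.320, 0.303 to 0.338). The monocyte gate, at 0.309 (0.236 to 0.401), did not. The lymphocyte gates had 0.643 with a wide interval (0.335 to 1.20) that overlapped with the macrophage and Kupffer gates. On single barcodes of the Kupffer gate at 7 days p.i., 5.38% carried at least 3 Il1rn UMIs and 1.61% at least 3 Il1b UMIs, against 3.08% and 17.9% in the neutrophil gate. The share of barcodes with any Il1rn UMI had the other order, with 24.2% in the Kupffer gate against 29.8% in the neutrophil gate, and 12.6% of 167 against 21.5% of 2360 barcodes after thinning. In the macrophage gate of the control, 45 Il1rn UMIs stood against 11 Il1b UMIs (ratio 4.09, 2.08 to 8.77).

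**Figure D5:**
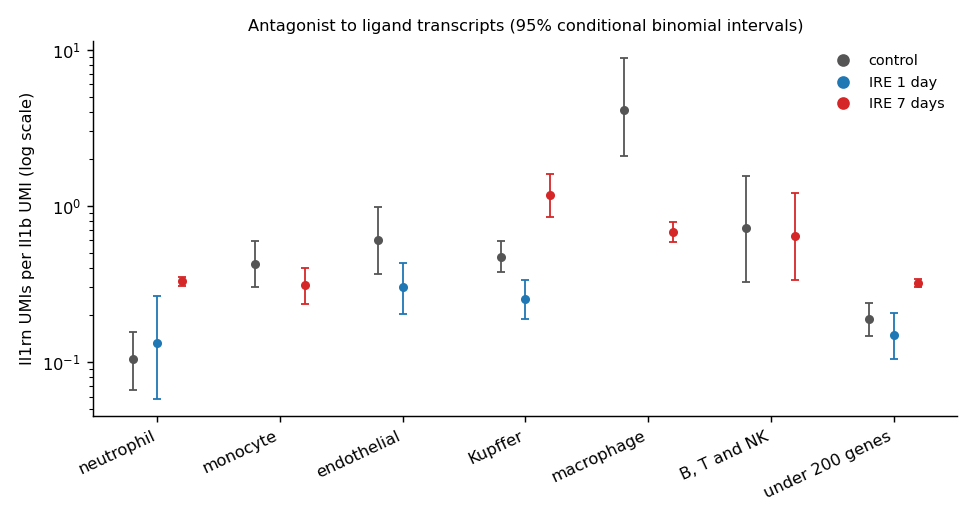
Il1rn UMIs per Il1b UMI (log axis) by gate and library with 95% conditional binomial intervals. Sets are shown in which both genes had counts, unless both counts were at most 3 UMIs. At 7 days p.i. the Kupffer gate (1.17) and the macrophage gate (0.675) stand above the neutrophil gate (0.329) and the barcodes under 200 genes (0.320).

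The decoy receptor and the signalling receptor differed in opposite directions at 7 days p.i. Il1r1, which binds both ligands, counted 108, 83 and 7 UMIs in the 3 libraries, and the number of Il1r2 UMIs per Il1r1 UMI was 1.44 in the control (1.12 to 1.85), 0.735 after 1 day (0.519 to 1.04) and 228 after 7 days (110.3 to 567). In the control the Il1r1 UMIs lay mainly outside neutrophils, with 32 in the endothelial gate, 34 in the mesenchymal gate and 4 in the neutrophil gate. As the endothelial gate held 48 barcodes after 7 days and the mesenchymal gate 1, fewer of these cells and a lower level within them cannot be told apart. Il1rap, the accessory chain, counted 59, 126 and 250 UMIs, 2.80-fold the control after 1 day (2.04 to 3.89) and 11.1-fold after 7 days, and it was 3.20-fold higher in the 7-day than in the control neutrophil gate (1.70 to 6.80).

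Neutrophils were divided further by genes of maturation and activation, splits added after the data were seen. In the 7-day library 225 neutrophil-gated barcodes carried Camp, Ltf or Ngp, genes of late granule precursors. On these Il1r2 was 1382 CPM against 797 CPM on the other 2308 barcodes (ratio 1.73, 1.47 to 2.04) and Il1f9 was 656 against 369 CPM (1.78, 1.39 to 2.25), whereas Il1b did not differ beyond counting error (1.07, 0.958 to 1.19). Their median depth was 509 against 443 UMIs. In the control Il1b was lower on the 43 such barcodes, at 269 against 1092 CPM (0.247, 0.111 to 0.476). The control ratios of Il1r2 (0.400) and Il1f9 (0.377) had intervals that included 1. At 1 day p.i. the Il1b ratio was 0.306 (0.0615 to 0.935), with 3 UMIs on 5 such barcodes.

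Barcodes with the chemokine genes Cxcl3 or Ccl4 (1462 against 1071 barcodes) were higher in 5 members. The ratio was 1.83 for Il1rn (1.60 to 2.10), 1.77 for Il1f9 (1.46 to 2.17), 1.45 for Nlrp3 (1.09 to 1.94), 1.42 for Il1b (1.32 to 1.52) and 1.25 for Il1r2 (1.10 to 1.42). Barcodes of this library with the interferon-induced genes Ifit1, Ifit3 or Isg15 (642 against 1891) differed in Il1r2 alone, at 1.17 (1.03 to 1.33), and Il1b had a ratio of 1.07 (0.994 to 1.15). In the control the interferon split (47 against 300 barcodes) differed in other members. There Il1b stood at 1.78 (1.30 to 2.41) and Il1rn at 3.26 (1.28 to 7.74, on 9 and 17 UMIs). Il1r2 in the control was 1.28 with an interval that included 1 (0.623 to 2.40). At 7 days p.i. barcodes with the chemokine or interferon-induced genes were deeper, with medians of 469 against 429 UMIs for Cxcl3 or Ccl4, and the part of depth in these ratios was not tested.

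Other genes of the pathway were taken from lists written with earlier results of these data known. Of 11 measured interleukin 1 response genes, 8 were at least 2-fold higher at 7 days p.i. and 0 lower, beside 8.79% and 26.3% of all genes, with a median log2 ratio of 2.05 beside -0.29. Cxcl2, a neutrophil chemoattractant, counted 465, 301 and 15974 UMIs in the 3 libraries, and the interval of its 7-day ratio to the control was 82.1 to 98.9. Ptgs2, which makes prostaglandins, was 20.2-fold higher, Saa3, an acute-phase protein, 3.96-fold (3.74 to 4.20) and Nfkbia, the inhibitor of NF-kB, 4179 against 3652 UMIs, with an interval of 2.87 to 3.13. In the neutrophil gate 6 of 10 were higher at 7 days p.i., beside 20.3% of genes, with 21.0-fold for Cxcl2 and 5.75-fold for Ptgs2 (2.41 to 18.0).

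The same list pointed down after 1 day. Of 10 measured response genes, 6 were at least 2-fold lower than in the control and 0 higher, beside 7.14% and 13.6% of all genes, with a median log2 ratio of -1.25 beside 0.05 over all genes. With at least 50 UMIs required, 4 of 8 were lower, beside 5.86% of genes, with a median of -0.65. Within gates 4 of 8 were lower in the Kupffer gate, beside 4.71% of genes, 1 of 7 in the endothelial gate, beside 3.9%, and in the neutrophil gate 1 of 5 was higher and 1 lower, beside 10.8% and 15.7%. Saa3 was lowest, with 30 UMIs against 1950 in the control (ratio 0.0202). Markers of several cell types were also lower, namely those of neutrophils (0.402% of UMIs in the control and 0.0693% after 1 day), mesenchymal cells (0.241% and 0.00738%), monocytes (0.213% and 0.0528%) and mesothelial cells (0.00755% and 0.00200%), and their part in this was not tested.

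Signalling and processing genes differed less. Of 12 receptor-proximal genes, Irak3, an inhibitor of the pathway, and Irak2 were at least 2-fold higher at 7 days p.i. (3.30 and 3.17), beside 8.79% of all genes, and Irak1, Tab2 and Peli1 stood at 0.717, 0.970 and 0.953. After 1 day 0 of these 12 were past 2-fold, beside 13.6% of all genes higher and 7.14% lower. Of 12 inflammasome and processing genes 1 was higher at 7 days p.i., Mefv, the gene of pyrin (4.38, 3.63 to 5.29), a share near the 8.79% of all genes. Casp1, which cleaves the precursor, stood at 0.939 (0.825 to 1.07) and Txnip at 0.797, Pycard, the adaptor, at 1.65 (1.52 to 1.79) and Nlrc4, another sensor, at 0.566 (0.325 to 0.936). After 1 day 2 of these 12 were lower, beside 7.14% of all genes, Pycard at 0.396 (0.356 to 0.441) and Panx1 at 0.421, the latter named after its value was seen.

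Receptors of the family differed in both directions at 7 days p.i., beside 8.79% of all genes higher and 26.3% lower. Of 2 other measured ligands, 0 were higher and 1 was lower. Of 7 measured receptors and soluble inhibitors 2 were higher, Il1rap and Il18rap (2.44), and 4 lower, Il18r1 (0.466), Sigirr (0.360), Il1rl1 (0.314) and Il1r1 (0.170), of which Il18rap, Sigirr and Il1rl1 are named after their values were seen, while Il18bp, the binding protein of interleukin 18, stood at 0.579. Within gates few receptors were measured. With at least 20 UMIs, 2 of 3 were higher in the macrophage gate and 2 of 2 in the monocyte gate. In the Kupffer gate 3 of 4 were higher. The shares of all genes higher in these gates were 18.1%, 13.4% and 12.0%. In these 3 gates 0 receptors were lower, beside 11.7%, 9.28% and 10.7% of genes. With at least 50 UMIs, 1 of 1 was higher in the monocyte gate, beside 14.2% of genes. At that limit 0 of 1 was higher in the Kupffer gate, beside 7.9% of genes, and 0 were measured in the macrophage gate. No lymphocyte background was computed for these receptors. In the neutrophil gate 1 of 4 was higher, beside 20.3% of genes, and 1 lower, beside 7.68%. The median log2 ratio there was -0.37 beside 0.25 over all genes. With at least 50 UMIs 1 of 3 was higher, beside 21.8% of genes, and 0 lower, beside 4.44%. Il33, an alarm signal of structural cells, counted 107 UMIs in the control and 3 at 7 days p.i. (ratio 0.0735, 0.0149 to 0.221), and Il18, processed by the same caspase as Il1b, stood at 0.924 (0.766 to 1.11).

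The genes most like each member were ranked by Pearson r of log2(CPM + 10) over 21 combinations of gate and library among 10073 genes, as a description only, since these points share libraries, depth and background. Il1b was most like Lcn2 (0.955), Slfn4 (0.942) and Il1r2 (0.935). Il1r2 was most like Gm5483 (0.975), Irg1 (0.955) and Mxd1 (0.952), and Il1f9 like Slfn4 (0.968), Trem1 (0.967) and Irg1 (0.967). Il1rn was most like Gp49a (0.936), Cd300lf (0.927) and Smox (0.925), and Nlrp3 like Dusp1 (0.913), Ier3 (0.906) and Trem1 (0.895). Il1a was most like Hs1bp3 (0.854), Pde7b (0.846) and Gpr126 (0.820), and its r with the other members lay between 0.388 and 0.493, against 0.804 to 0.935 among those members.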

How the data were processed

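Counts were deposited by the authors as unnormalized UMIs per gene and barcode. According to the file headers, the Drop-seq DigitalExpression tool counted sense-strand reads on coding and untranslated bases with a mapping quality of at least 10 and merged UMIs within 1 base. A minimum of 200 genes per barcode is named there, yet barcodes with as few as 11 genes are listed. The submitters' processing notes name STAR 2.5.2a and hg19, although the organism is mouse; the mouse build is not given in the sources used here.

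Barcodes with at least 200 genes were kept. Of 16 classes, 15 were gated by distinct markers (at least 3, lead of at least 1) and hepatocytes by at least 20% hepatocyte-marker UMIs, with 3 of 164 markers and 4 of 52 pathway genes missing from the matrices. No doublet caller was run, and the deepest 5% of barcodes were removed in an alternative run. Sums were taken per gate of at least 50 barcodes. A ratio was given unless both sums were at most 3 UMIs, and genes were counted as past 2-fold with at least 20 UMIs in the pair. Named pathway genes were, per list, the 3 with the most UMIs and the 2 with the largest ratio in either direction at 7 days p.i. among those with at least 20 UMIs. The members, lists and gates were chosen with earlier results of these data known. Scripts were tested on simulated data. Python 3.11.15, numpy 2.4.6, scipy 1.17.1, pandas 2.3.3 and matplotlib 3.10.9 were used.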

Additional observations from a re-analysis of the deposited data

Results flagged for a closer look

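Barcodes with fewer than 200 genes, left out of the comparisons above, held signal at 7 days p.i. above that of such barcodes in the control. At 7 days p.i. these 6842 barcodes, with a median of 215 UMIs, carried 3642 CPM of Il1b against 226 CPM in the control, 1165 CPM of Il1rn against 42.6, 1196 CPM of Il1r2 against 41.6, 617 CPM of Il1f9 against 35.2, 280.1 CPM of Nlrp3 against 15.4 and 17.1 CPM of Il1a against 3.96. In the 1-day library Il1a stood at 16.3 CPM and Nlrp3 at 16.3 CPM. Il1b, Il1rn, Il1r2 and Il1f9 were below the control there, at 116, 17.1, 11.8 and 6.11 CPM. Of the 7-day barcodes 4571 met the neutrophil gate, and these held 82.5% of the Il1b, 86.6% of the Il1r2 and 76.6% of the Il1rn UMIs found there (Il1b at 4311 CPM). The limit of 200 genes therefore leaves out more neutrophil-gated barcodes at 7 days p.i. than the 2533 it keeps, and in the control, too, 381 are left out and 347 kept. At 1 day p.i. the order was the other way, with 50 left out and 61 kept.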

How the results depend on the processing

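No paired analysis was possible because each condition is a single library and no number pairs them. Of 72 library ratios under other settings 53 stayed within their interval, and none changed direction. With barcodes of at least 500 genes, Il1b was 0.855 of the control at 1 day p.i. and 10.3-fold at 7 days p.i., Il1rn 0.307 and 7.84, Il1f9 0.259 at 1 day p.i. and Nlrp3 0.547 and 5.25. With every deposited barcode the 7-day ratios were 16.1 for Il1b, 15.2 for Il1rn and 11.6 for Nlrp3. With at most 20% mitochondrial UMIs Il1b was 15.1 and Il1r2 36.9 at 7 days p.i., Il1f9 0.211 and Nlrp3 0.510 at 1 day p.i. Without mitochondrial genes and hepatocyte markers Il1b was 11.2, Il1rn 9.55 and Il1r2 22.3 at 7 days p.i. Without the 5% deepest barcodes Il1rn was 0.486 and 13.3. Of 273 gate ratios 254 stayed within their interval, 18 left it and 1 whose interval had excluded 1 turned, Il1b in the neutrophil gate at 1 day p.i., which was 0.763 with barcodes of at least 500 genes, where it rested on 3 UMIs. Il1a in the neutrophil gate at 7 days p.i. and Il1f9 there at 1 day p.i. had 0 UMIs on a side under some settings, which gives no direction, with lower bounds down to 0.384 and upper bounds up to 3.21, and Il1a in the Kupffer gate at 1 day p.i. lay between 0.780 and 1.04. At 7 days p.i. the neutrophil gate ranged from 2.09 to 4.19 for Il1b, 6.61 to 14.5 for Il1rn, 2.44 to 5.32 for Il1r2 and 2.15 to 4.31 for Il1f9. In the same gate at 1 day p.i. the ratios ranged from 1.67 to 4.82 for Il1rn and from 1.34 to 4.22 for Il1r2. The cause of these shifts was not tested. Depth limits Il1a, Il1f9 and Nlrp3 most, with 1 to 2 UMIs in the neutrophil gate at 1 day p.i. or in the control for Il1a.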
